A study of Mus musculus with 3 samples.

Results

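The alpha and beta tubulin isotypes are the subunits from which microtubules are built. They were taken as the 10 gene rows Tuba1a, Tuba1b, Tuba4a, Tubb2a, Tubb2b, Tubb3, Tubb4a, Tubb4b, Tubb5 and Tubb6 among the 14933 genes of the filtered count table, and all 10 were present. Their unique molecular identifiers (UMIs, each standing for 1 captured RNA molecule) were counted in single cells from the medial prefrontal cortex of C57Bl6 mice at postnatal day 5, sorted for tdTomato and captured on the 10X Genomics platform. Every animal group carried the Rbp4cre transgene and the tdTomato reporter. The wild-type library (Rbp4cre::tdTomato) had no other stated allele, the heterozygous library (Tbr1f/+::Rbp4cre::tdTomato) had 1 floxed copy of Tbr1, and the homozygous library (Tbr1f/f::Rbp4cre::tdTomato) had 2. Cre driven from the Rbp4 transgene acts mainly in layer 5 pyramidal neurons, so that Tbr1, a T-box transcription factor of deep-layer neurons, was removed only where Cre was active. The study asked which genes depend on Tbr1 in layer 5.

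There was 1 library for each genotype, and nothing says how many animals it held. Differences between genotypes therefore have no replicate check, and no p-value is given for them. The intervals printed are exact 95% intervals that cover counting error only. Within each library the cells fell into 3 groups. Typical neurons were the cells that the authors retained for their differential expression analysis (1778 wild-type, 5357 heterozygous and 3935 homozygous cells). Atypical neurons were neuronal cells that the authors set aside (304, 107 and 462 cells), describing them as lower in excitatory markers and high in housekeeping genes. The other filtered cells lay outside the neuronal table (2873, 1398 and 1182 cells).

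A microtubule is a hollow polymer of alpha-beta tubulin dimers, and growing axons and dendrites depend on a large supply of them. Mammals carry several genes for each subunit. Tuba1a is the main alpha tubulin of developing neurons, Tubb2a, Tubb2b and Tubb3 are enriched in neurons, Tubb5 is broadly expressed and abundant in dividing and young cells, Tubb4a is abundant in oligodendrocytes, Tubb4b is a component of cilia, and Tubb6 is found in many non-neuronal tissues. The isotypes differ most in the acidic tail at the carboxyl end, which extends from the surface of the microtubule and receives glutamate chains. Tubulin messenger RNAs are also destroyed during translation when free dimers are in excess, through recognition of the first residues of the nascent chain by TTC5.

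The first 12 coding bases carry the signal for this autoregulation, and they are shown for 6 isotypes to compare the alpha with the beta family, the capitals marking codons 2 to 4.
Tuba1a: atgCGTGAGTGC
Tuba4a: atgCGCGAGTGC
Tubb2a: atgCGCGAGATC
Tubb2b: atgCGAGAGATC
Tubb3: atgAGGGAGATC
Tubb5: atgAGGGAAATC
Tuba1b shared the 12 bases of Tuba1a and Tubb4b those of Tubb3. Within a family the printed bases differed only in how codons 2 and 3 were spelled, and codon 4 separated alpha from beta.

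The last 20 codons with the stop codon encode the tail, and they are shown for the beta isotypes whose levels the results turn on, the capitals marking codons for glutamate and aspartate (GAA, GAG, GAT and GAC in frame).
Tubb2a: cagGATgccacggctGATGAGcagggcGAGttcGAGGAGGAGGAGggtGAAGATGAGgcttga
Tubb2b: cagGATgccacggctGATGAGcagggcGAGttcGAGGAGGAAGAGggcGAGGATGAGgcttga
Tubb3: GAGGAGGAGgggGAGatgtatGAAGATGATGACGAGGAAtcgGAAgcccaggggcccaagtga
Tubb4a: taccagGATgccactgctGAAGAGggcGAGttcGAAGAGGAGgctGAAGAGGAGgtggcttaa
Tubb5: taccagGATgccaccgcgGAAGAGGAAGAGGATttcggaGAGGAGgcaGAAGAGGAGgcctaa
Of these 20 codons, 10 were acidic in Tubb4a and 11 in Tubb2a, Tubb2b, Tubb3 and Tubb5. Tuba1a and Tuba1b were 98.3% identical over the whole coding sequence, and Tubb2a and Tubb2b 96.5%. The tail of Tubb3 stood furthest from the other beta tubulins, at 45.9% to 53.1% identity over the last 60 coding bases.

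In the mouse assembly GRCm38 (GENCODE M21 annotation, sequences from its transcripts), Tuba1a lies at chr15:98949837-98953703 and Tuba1b at chr15:98931425-98934565, both on the minus strand. Tubb2a (chr13:34074274-34078007) and Tubb2b (chr13:34126748-34130466) are likewise neighbours on the minus strand, and Tubb3 lies at chr8:123411424-123422015 on the plus strand. Tubb5 is at chr17:35833921-35838306, Tubb4a at chr17:57080066-57087782, Tubb4b at chr2:25222160-25224702 and Tuba4a at chr1:75214228-75219865, all on the minus strand. Each of the transcripts with the longest coding sequence had 4 exons. The assay reads the 3′ end of an RNA, so counts do not scale with transcript length, and part of that end is shared between genes. Of all 50-base windows in the last 500 bases of the transcript, 56.3% of those of Tuba1a, 63.6% of Tuba1b, 42.4% of Tubb2a and 35.3% of Tubb4b also occurred in a transcript of another gene, and 0% of those of the other 6 members. Levels of Tuba1a, Tuba1b, Tubb2a and Tubb4b are uncertain to the extent that reads from the shared stretches were lost or split. The same holds for their ranks against other isotypes, such as Tubb2a against Tubb2b or Tubb3.

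Typical neurons held 3670646, 10418228 and 6074494 UMIs in the wild-type, heterozygous and homozygous libraries, with medians of 1901, 1743 and 1375 UMIs per cell and median mitochondrial shares of 10.4%, 15.4% and 12.5%. Levels are given below as UMIs of a gene per 1000000 UMIs of the same cells (CPM). The libraries shared 37 to 58 cell barcodes in pairs, out of 4955 to 6862 cells each. Excitatory neuron markers (7 genes, among them Neurod6 and Nrgn) summed to 2114, 2528 and 3207 CPM in wild-type, heterozygous and homozygous typical neurons, and to 304 CPM in endothelial-like cells of the same libraries. Astrocyte and radial glia markers (10 genes) summed to 7649, 6797 and 7636 CPM in the typical neurons of these libraries. In empty droplets, described below, the same astrocyte and radial glia markers summed to 7514, 7261 and 7829 CPM. With libraries pooled, they summed to 1980 CPM in endothelial-like, 1845 CPM in inhibitory neuron-like and 6584 CPM in excitatory neuron-like cells. Astrocyte and radial glia-like cells had 22109 CPM. The source of these markers in typical neurons was not tested. Tbr1 was at 27.5, 30.7 and 22.4 CPM in wild-type, heterozygous and homozygous typical neurons. The deletion removes exons 2 and 3, which 3′ reads need not cover, so these values do not test the labels. Droplets with 100 to 499 UMIs, which hold mostly free RNA, carried all 10 tubulins at a summed 14092, 16847 and 15938 CPM in the wild-type, heterozygous and homozygous libraries. Tuba1a, for example, was at 7334, 9487 and 8930 CPM there in the same order. The largest share of this empty-droplet profile that could be taken from typical neurons was 26.6%, 8.30% and 17.8% of UMIs in the same order. The limit was that no summed list of blood, vascular, microglial or meningeal markers fell below 0, while single markers could. The ratios with this share subtracted are among the processing alternatives.

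Tubulin RNA made up between 1 and 2 of every 100 UMIs in layer 5 neurons. All 10 isotypes together reached 16032, 17623 and 16912 CPM in wild-type, heterozygous and homozygous typical neurons. With every cell thinned to 1000 UMIs, the median typical neuron had 16 tubulin UMIs in the wild-type library and 17 in each mutant library, from a median of 5 different isotypes in all 3 libraries. No typical neuron lacked a tubulin UMI. Alpha tubulins provided 57.3% of these UMIs in wild-type, 61.6% in heterozygous and 59.8% in homozygous typical neurons.

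Tuba1a was the most abundant isotype by a wide margin. Its level was 8359 (95% interval 8265 to 8453), 9976 and 9283 CPM in wild-type, heterozygous and homozygous typical neurons. It supplied 91.0%, 91.9% and 91.7% of all alpha tubulin UMIs. Tuba1b stood at 764, 793 and 760 CPM in wild-type, heterozygous and homozygous cells. Tuba4a, an alpha tubulin gene that does not encode the terminal tyrosine, was scarce, at 67.3, 89.4 and 75.9 CPM. One of the 2 abundant alpha tubulins thus differed little between libraries, and the other was higher in both mutant libraries.

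No single beta tubulin dominated. Tubb2b was at 2057, 1829 and 1758 CPM in wild-type, heterozygous and homozygous typical neurons. Tubb5 was at 1991, 1813 and 1874 CPM in the same order, so that these isotypes ranked differently from library to library and could not be ordered. Tubb3, the beta tubulin used as a marker of neurons, was at 1326, 1491 and 1521 CPM. Tubb2a was at 1192, 1352 and 1369 CPM, below Tubb3 in each library. Together these 4 isotypes gave almost all beta tubulin RNA. The minor members were Tubb4b at 208, 197 and 184 CPM and Tubb4a at 64.0, 80.8 and 84.3 CPM. Tubb6 had 14 UMIs in all wild-type, 26 in all heterozygous and 17 in all homozygous typical neurons, which is 2.50 to 3.81 CPM and lies below the 7.75 to 11.1 CPM of the empty droplets. Tubb6 in typical neurons was therefore not above the free RNA of its library.

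**Figure D1:**
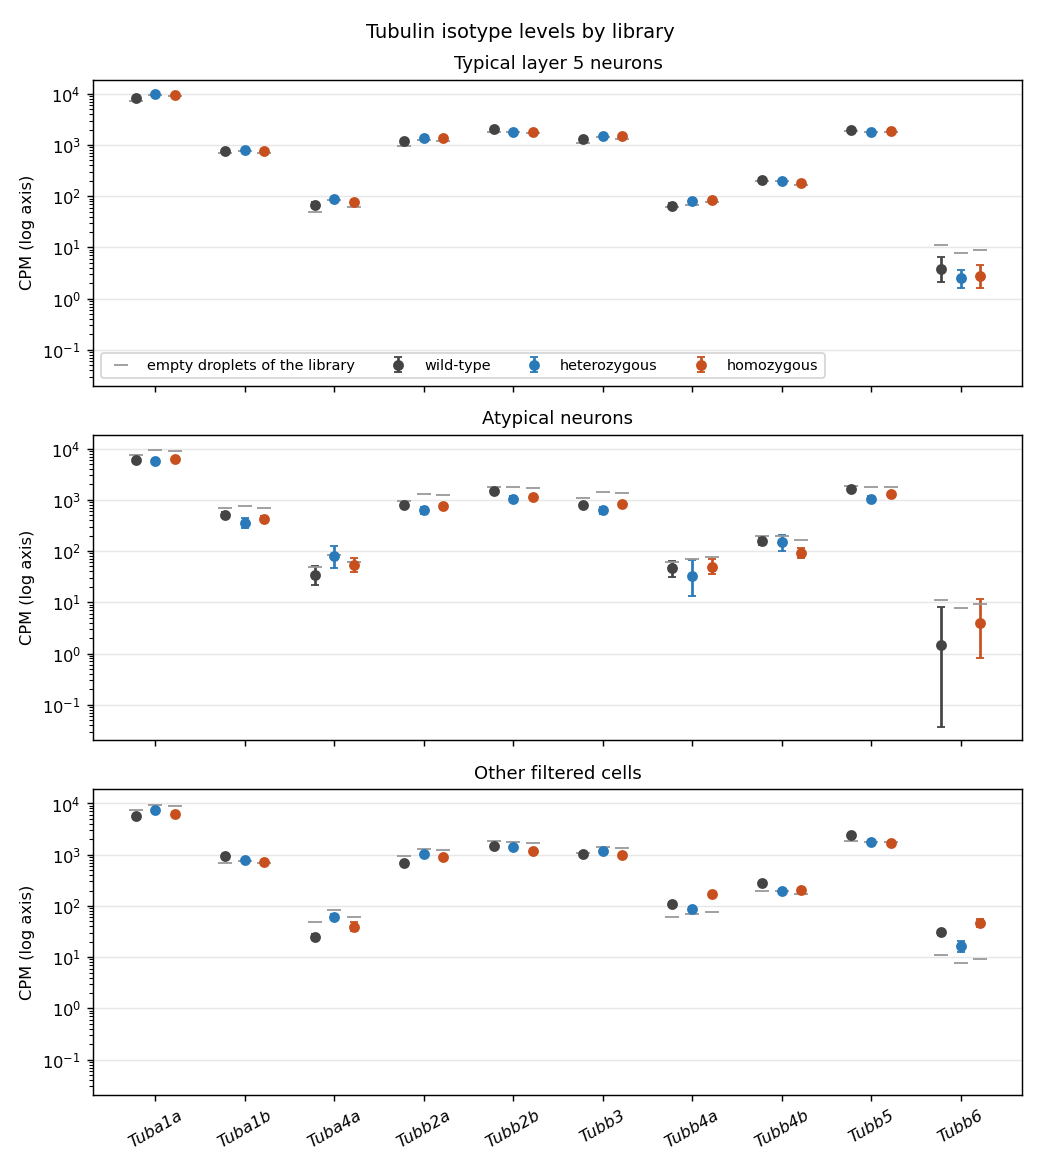
Level of each tubulin isotype in CPM (logarithmic axis) in typical neurons, atypical neurons and other filtered cells, with 1 point per library and exact Poisson 95% intervals, and grey dashes at the level in empty droplets of the same library. Tuba1a lies highest in each cell group, Tubb6 lies lowest in typical neurons, and atypical neurons lie under the empty droplets of their library for each isotype (Tubb6 of the heterozygous atypical neurons had 0 UMIs and is not drawn).

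Detection in single cells followed these levels. After thinning to 1000 UMIs, Tubb3 had a UMI in 71.9% of wild-type, 75.04% of heterozygous and 75.9% of homozygous typical neurons, against 90.3%, 90.03% and 86.1% without thinning. Endothelial-like cells, which should lack Tubb3, gave 21.6% at the same thinned depth, from cells with medians of 2886.5 and 2902 UMIs in their clusters before thinning. Tuba4a was found in 7.09% to 8.33% of thinned typical neurons and Tubb4a in 6.24% to 8.23%. Levels of these isotypes thus rested on few UMIs per cell.

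In the mutant libraries, typical neurons held more alpha tubulin RNA per total UMIs and a different mix of beta isotypes. The log2 ratio of summed alpha tubulins was 0.24 (0.22 to 0.26) for heterozygous over wild-type and 0.14 (0.12 to 0.16) for homozygous over wild-type. The beta sum gave -0.02 (-0.04 to 0.0046) and -0.01 (-0.03 to 0.01), on levels of 6842, 6765 and 6793 CPM in wild-type, heterozygous and homozygous cells. The sum of all 10 members was higher by 0.14 (0.12 to 0.15) in heterozygous and by 0.08 (0.06 to 0.09) in homozygous typical neurons on the log2 scale. Over every gene that averaged 20 CPM or more, the median ratio was 0.06 and 0.08 for the same comparisons. The homozygous sum thus lay at the median of all genes and the beta sum below it in both comparisons. The lower and upper quartiles of these genes were -0.134 and 0.235 for heterozygous and -0.113 and 0.247 for homozygous over wild-type. The homozygous alpha sum (0.14) lay between its quartiles, and the heterozygous alpha sum (0.241) just above the upper one. Another denominator moves every isotype of a comparison alike, and the alpha sum with them. Over the UMIs of the neuronal table genes the homozygous sum of all 10 went from 0.08 to 0.0197, a shift wider than the interval of the beta sum, so the place of the beta sum relative to 0 depends on the denominator. Both comparisons share the wild-type library. As mean raw UMIs per cell, with no scaling for depth, the homozygous sum turned to -0.34, beside the lower median depth of that library. The homozygous library was lower than the heterozygous one by a summed log2 ratio of -0.06 (-0.07 to -0.05).

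Most of the alpha difference in UMIs lay in Tuba1a. Its log2 ratio was 0.26 (0.24 to 0.27) for heterozygous and 0.15 (0.13 to 0.17) for homozygous over wild-type, while that of Tuba1b was 0.05 (-0.01 to 0.12) and -0.01 (-0.08 to 0.06). Tuba4a gave 0.41 (0.21 to 0.62) and 0.17 (-0.05 to 0.40), the wide intervals coming from 247 wild-type UMIs. Among the beta tubulins, Tubb2a and Tubb3 were higher in both mutant libraries. Tubb2a had log2 ratios of 0.18 (0.13 to 0.23) and 0.20 (0.15 to 0.25), and Tubb3 of 0.17 (0.12 to 0.22) and 0.20 (0.15 to 0.25). Tubb2b and Tubb5 were lower in both mutant libraries. The Tubb2b ratio was -0.17 (-0.21 to -0.13) in heterozygous cells and -0.23 (-0.27 to -0.18) in homozygous cells, and the Tubb5 ratio was -0.13 (-0.17 to -0.10) and -0.09 (-0.13 to -0.05). Both ratios of Tubb2a and of Tubb3 and the homozygous ratio of Tuba1a lay between the quartiles of all genes given above. The heterozygous ratio of Tuba1a lay above the upper quartile, and both ratios of Tubb2b lay below the lower one. For Tubb5 the homozygous ratio lay between the quartiles and the heterozygous one at the lower quartile. Tubb4b gave -0.08 (-0.20 to 0.04) and -0.18 (-0.31 to -0.04), and Tubb6, with -0.61 (-1.60 to 0.44) and -0.45 (-1.56 to 0.69), had too few UMIs to give a direction.

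These shifts can be read as shares of beta tubulin RNA, which do not depend on the total of all genes. Tubb2b gave 30.1% of beta tubulin UMIs in wild-type, 27.0% in heterozygous and 25.9% in homozygous typical neurons. Tubb5 went from 29.1% in wild-type to 26.8% in heterozygous and 27.6% in homozygous cells. Tubb3 made up 19.4%, 22.0% and 22.4%, and Tubb2a 17.4%, 19.99% and 20.2%. The neighbouring genes Tubb2a and Tubb2b thus lay in opposite directions from the wild-type library in both mutant libraries.

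Few members passed a fixed fold. The fold was set at a log2 ratio of 0.32 in either direction. Of the 9 members that averaged 20 CPM or more, 1 was past it upward in homozygous over wild-type typical neurons (Tubb4a, log2 ratio 0.40, 0.17 to 0.63), where 16.8% of all 4269 genes were. None was past it downward, against 8.6% of all genes. For heterozygous over wild-type, Tuba4a and Tubb4a (log2 ratio 0.34, 0.13 to 0.55) were past the fold upward, 2 of 9 against 16.8% of 4230 genes, and none was past it downward, against 9.86%. That count of 2 fell to 1 under 6 of the processing alternatives, among them TMM and DESeq2 factors, and to 0 when cells were thinned to equal depth. Between the mutant libraries none of 9 passed in either direction, against 4.11% of 4307 genes upward and 2.65% downward. The shares of members past the fold were thus near those of all genes, and both isotypes that passed were scarce ones.

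**Figure D2:**
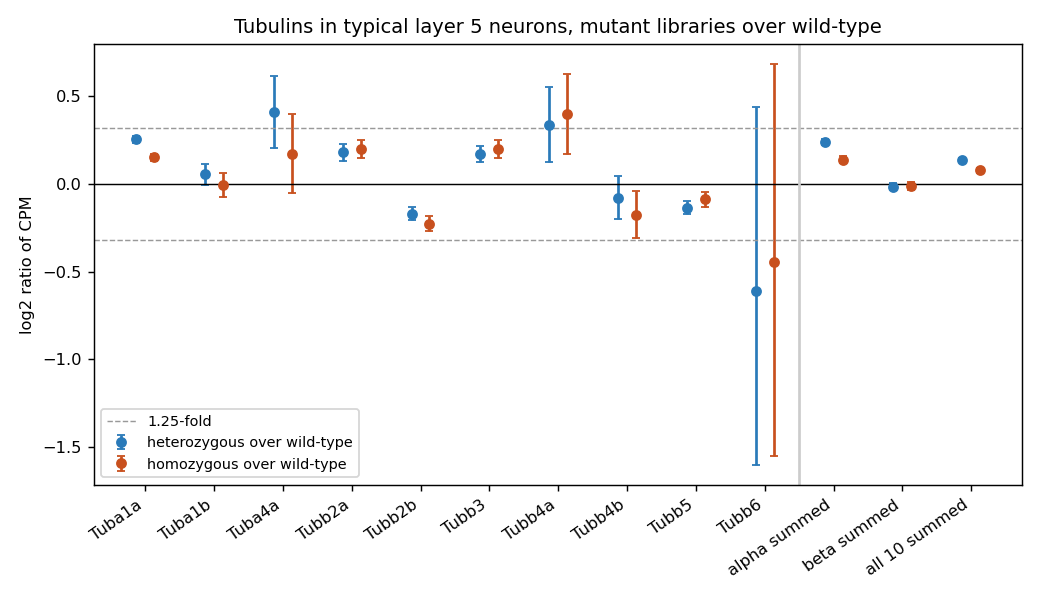
Log2 ratio of CPM in typical neurons, heterozygous (blue) and homozygous (orange) over the wild-type library, for each isotype and for the summed alpha, beta and all isotypes, with exact 95% intervals for counting error and dashed lines at the fixed fold (0.32 in either direction). Tuba1a, Tubb2a, Tubb3 and Tubb4a lie above 0 and Tubb2b and Tubb5 below 0 in both comparisons, while the beta sum lies near 0 with total UMIs as the denominator.

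Several of these directions were also present in the free RNA, and others were not. In empty droplets the log2 ratio of Tuba1a was 0.37 for heterozygous and 0.28 for homozygous over wild-type, that of Tubb2a 0.41 and 0.34, that of Tubb3 0.36 and 0.28, and that of Tubb5 -0.09 and -0.10. Both isotypes past the fold in typical neurons were also higher in the free RNA, Tuba4a with 0.77 (0.62 to 0.92) and 0.32 (0.18 to 0.46) and Tubb4a with 0.19 (0.03 to 0.34) and 0.32 (0.19 to 0.45). Tubb2b differed less there, with -0.01 and -0.11. The beta sum was higher in the free RNA of both mutant libraries, by 0.11 (0.10 to 0.13) and 0.05 (0.04 to 0.07), unlike in typical neurons. Heterozygous Tubb4b, at 0.02, and homozygous Tuba1b, at 0.03, also had the opposite sign there, with intervals that include 0. Markers of some other cell types were also unequal between the typical neurons of the 3 libraries, most of all those of blood and meningeal fibroblasts. Blood markers summed to 345, 44.6 and 85.8 CPM in wild-type, heterozygous and homozygous cells, and meningeal fibroblast markers to 313, 32.9 and 46.1 CPM. Of the markers in both lists, only Lum was at 0 UMIs, in wild-type typical neurons. Inhibitory neuron markers (591, 531 and 656 CPM) and oligodendrocyte lineage markers (375, 348 and 302 CPM) differed less, as did the astrocyte and radial glia markers given above. The part of free RNA and of other cell types in the tubulin ratios was not tested.

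Glial and vascular classes, clustered as described below, gave mixed directions between genotypes. In astrocyte and radial glia-like cells Tuba1a was at 4308, 4866 and 4999 CPM in wild-type, heterozygous and homozygous cells. The cluster of this class with the higher excitatory markers, where Tuba1a was at 6271 CPM against 4251 CPM in the largest cluster, held 49 of 461 wild-type, 50 of 131 heterozygous and 54 of 163 homozygous cells, so these values are not like for like. In endothelial-like cells it was at 2568, 2215 and 2294 CPM, higher in the wild-type library. Tubb2b in astrocyte and radial glia-like cells was at 1325, 1171 and 1152 CPM, lower in both mutant libraries, over the same unequal mix of clusters. The oligodendrocyte lineage-like cells had Tubb2b at 1540, 1574 and 1564 CPM. Their precursor cluster, with Tubb2b at 1318 CPM over all libraries, held 186 of 247 wild-type but 9 of 41 heterozygous and 23 of 70 homozygous cells, so these values are not like for like either.

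Atypical neurons had less tubulin RNA than typical neurons in all 3 libraries. The sum of the 10 isotypes was 11501, 9715 and 10940 CPM in wild-type, heterozygous and homozygous atypical neurons. The log2 ratio over typical neurons of the same library was -0.48, -0.86 and -0.63, with a mean of -0.66 ± 0.19 (SD, n = 3 libraries of different genotype). Of 9 members other than Tubb6, all were lower in atypical neurons in each library. Over all genes that averaged 20 CPM or more, the median log2 ratio was 0.04, -0.07 and -0.08 in wild-type, heterozygous and homozygous libraries. The lower quartiles were -0.23, -0.45 and -0.34 in the same order. Heterozygous Tuba4a (-0.18) and Tubb4b (-0.41) lay above the lower quartile, and all other ratios of these 9 members lay below that of their library. The intervals of heterozygous Tuba4a (-0.97 to 0.50) and Tubb4b (-0.97 to 0.09) and of wild-type Tubb4a (-1.07 to 0.06) included 0. Tubb6 had 0 UMIs in the heterozygous atypical neurons, with an exact interval for its level of 0 to 17.1 CPM. Tubb3 was at 781, 624 and 821 CPM and had a mean log2 ratio of -0.97 ± 0.26 (SD, n = 3). Tubb5 was at 1594, 1050 and 1304 CPM and had a mean log2 ratio of -0.54 ± 0.23 (SD, n = 3). At least 2-fold lower were 4 of 9 members in the heterozygous library (Tuba1b, Tubb2a, Tubb3 and Tubb4a) against 8.4% of all genes, and none in the wild-type or homozygous library, against 1.9% and 2.83%. Tubb4a rested there on 7 UMIs in heterozygous atypical neurons, with an interval of -2.64 to -0.27. No member was 2-fold higher, against 3.31% of genes in wild-type, 3.95% in heterozygous and 2.08% in homozygous cells.

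The summed excitatory markers of atypical neurons were not lower than those of typical neurons in 1 library. They summed to 768 CPM in wild-type and 1483 CPM in homozygous atypical neurons, under the typical neurons of the same library. In heterozygous atypical neurons they summed to 2640 CPM, where typical neurons had 2528 CPM. Neurod2, 1 of the 7 markers, had 0 UMIs in heterozygous atypical neurons, so the sum does not speak for each marker. Neurod6 and Nrgn, which the authors named, are not given singly. Median UMIs per cell were 2039, 1865 and 1459 in wild-type, heterozygous and homozygous atypical neurons. Immature neuron markers (6 genes) summed to 2799.5, 1373 and 2072 CPM in wild-type, heterozygous and homozygous atypical neurons, where typical neurons had 1642, 1331 and 1414 CPM. Blood markers (5 genes, of which Alas2 was at 0 in atypical neurons) summed to 997 CPM in homozygous atypical neurons against 85.8 CPM in typical ones, while the pair of values was 345 and 345 CPM in the wild-type library and 60.1 and 44.6 CPM in the heterozygous one. The part of these markers in the lower tubulin levels was not tested. The heterozygous group had only 107 cells and a median mitochondrial share of 19.5%, against 10.1% in wild-type and 13.6% in homozygous atypical neurons. The authors clustered these cells on a gene table that held 9 of the 10 isotypes, so that the difference is a description and not a test.

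The cells outside the neuronal table were a mixture, of glia, vascular cells, blood and further neurons. Their summed tubulins were 12667, 13880 and 12196 CPM in wild-type, heterozygous and homozygous libraries, with a mean log2 ratio over typical neurons of -0.39 ± 0.07 (SD, n = 3). Alpha tubulins were lower by a mean of -0.47 ± 0.06 and beta tubulins by -0.27 ± 0.10 on the log2 scale (SD, n = 3). Tuba1a gave a mean ratio of -0.53 ± 0.07 and Tuba4a of -0.97 ± 0.43 (SD, n = 3). Tubb4a was at 110, 87.8 and 169 CPM in the other cells, with a mean log2 ratio of 0.63 ± 0.46 (SD, n = 3), and the heterozygous ratio of 0.12 (-0.06 to 0.30) had an interval that includes 0. Tubb6 was at 30.4, 16.2 and 46.6 CPM in wild-type, heterozygous and homozygous other cells, above the 7.75 to 11.1 CPM of the empty droplets, and no ratio is given because its level in typical neurons lay below them. For at least 2-fold higher levels, none of 9 members passed in wild-type (28.3% of genes), none of 9 in heterozygous (10.8%) and 2 of 10 in homozygous libraries, Tubb4a and Tubb6 (21.8%). Tubb6 reached the minimum of 20 CPM only through its level in the other cells, so its place in that count supports nothing. Tuba4a was at least 2-fold lower in wild-type, 1 of 9 members against 4.07% of genes, and no member was so in heterozygous (0.0204%) or homozygous (1.3%) cells. With TMM factors or DESeq2 size factors in place of total UMIs, which shift all other-over-typical log2 ratios by a mean of -0.54 and -0.45, the mean ratios of Tuba1b, Tubb4b and Tubb5 turn from above to below 0.

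The cells outside the neuronal table were clustered on genes without the tubulins, and clusters were named only where their leading genes fitted fixed markers. Tubulins therefore had no part in this clustering, although they were in the authors' table that set neurons apart from the other cells. Levels of a class are given per library, or as means over the libraries with at least 30 cells of it. Levels of single clusters within a named class, marker sums and shares of cells or of UMIs are pooled over all libraries.

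Among classes with at least 30 cells in all 3 libraries, the highest tubulin level belonged to unnamed cluster 1 (701 cells). This cluster was led by Sp8, Dlx6os1, Igfbpl1 and Sox11, genes of young neurons of the interneuron lineage. Its 10 isotypes summed to 22594, 24697 and 20616 CPM in wild-type, heterozygous and homozygous cells (mean 22636 ± 2041, SD, n = 3), above typical neurons in each library. Tubb3 reached 3061 ± 486 CPM there and Tubb5 4553 ± 270 CPM (SD, n = 3), against 1446 ± 105 and 1893 ± 90.4 CPM in typical neurons. Tubb2a was lower in this cluster than in typical neurons, at 747 ± 39.6 against 1304 ± 97.6 CPM (SD, n = 3). Tubb2a gave 6.83% of its beta tubulin UMIs and Tubb5 40.7%, over all libraries. Unnamed cluster 25 (36 cells, 30 of them wild-type), with Eomes, Igfbpl1 and Neurod1, genes of neuronal progenitors and newborn neurons, among its leading genes, summed to 22455 CPM in the wild-type library, with Tubb5 at 4441 CPM and Tubb3 at 2169 CPM. That sum was near the 22594 CPM of cluster 1 in the same library, so these clusters are not ranked.

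Inhibitory neuron-like cells had more Tubb2a and Tubb3 than typical neurons, while the direction of their tubulin sum differed between libraries. Their sum was 16613 ± 1236 CPM (SD, n = 3), against 16856 ± 797 CPM in typical neurons. Within libraries, this sum lay above that of typical neurons in wild-type and homozygous cells and below it in heterozygous cells. Tubb2a was at 2042, 1841 and 2247 CPM in wild-type, heterozygous and homozygous inhibitory neuron-like cells, above typical neurons in every library. Tubb3 was at 1963, 1905 and 2049 CPM, likewise above typical neurons. The reverse held for Tuba1a, at 6969, 6952 and 8091 CPM, below typical neurons in each library. Tuba1b, at 991, 828 and 1026.5 CPM, was above typical neurons in each library. Excitatory neuron-like cells, of which 275 of 346 were heterozygous, had a sum of 15560 CPM in wild-type and 15973 CPM in heterozygous cells, below typical neurons of the same library.

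Cycling-like cells (310 wild-type, 24 heterozygous and 37 homozygous) had more Tuba1b and Tubb5 than typical neurons. Tuba1b was at 2468 CPM in wild-type and 1888 CPM in homozygous cycling-like cells, its highest level in any named class with 2 or more libraries. Tubb5 was at 4929 and 4239 CPM. Over all libraries Tuba1b gave 28.7% of alpha and Tubb5 58.2% of beta tubulin UMIs there, against 7.53% and 27.5% in typical neurons. Immature neuron markers were also high in these cells, at 5836 CPM summed, against 1413 CPM in typical neurons, and Tubb3 was at 1161 and 1306 CPM, below typical neurons of the same library. The smaller of the cycling-like clusters (49 cells) had Tubb3 at 285 CPM.

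Oligodendrocyte lineage-like cells were set apart by Tubb4a. It was at 517, 1003 and 1470 CPM in wild-type, heterozygous and homozygous cells of this class, above every other class in each library. The class joined 3 clusters that differed in their leading genes. The cluster led by Mbp, Mag and Cnp, genes of myelin (83 cells), had Tubb4a at 1887 CPM (1751 to 2030), which was 31.4% of its beta tubulin UMIs, and 78.3% of its cells had a UMI after thinning. The cluster led by Pdgfra, Olig1 and Olig2, genes of precursor cells (218 cells, 186 of them wild-type), had Tubb4a at 75.1 CPM (55.2 to 99.9), near typical neurons. The remaining cluster (57 cells) led by Mbp but with excitatory markers at 1544 CPM had 364 CPM (256 to 502). The myelin cluster held 52 wild-type, 6 heterozygous and 25 homozygous cells, and the remaining one held 9, 26 and 22, so that the libraries mixed these clusters in different shares and their Tubb4a levels in the class are not like for like. Tuba1a was at 11396 CPM in the myelin cluster, against 9206 ± 811 CPM in typical neurons (SD, n = 3).

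**Figure D3:**
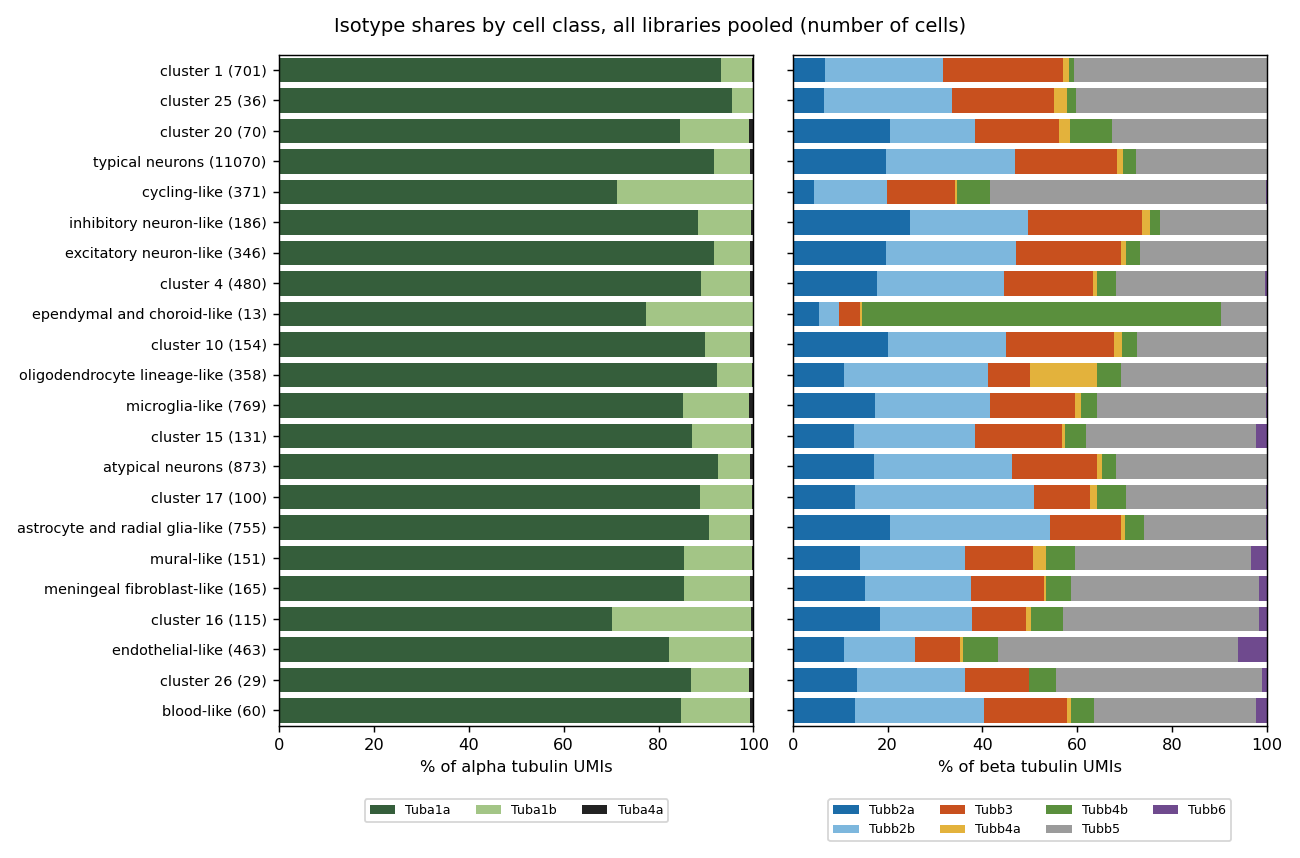
Share of each isotype in alpha tubulin UMIs (left) and beta tubulin UMIs (right) in percent, for each class of cells with all libraries pooled, ordered from the highest (top) to the lowest summed tubulin level, with the number of cells in brackets. Tuba1a gives 70.1% to 95.6% of alpha tubulin in these classes, Tubb5 gives 58.2% of beta tubulin in cycling-like cells, and Tubb4b 75.8% in the 13 ependymal and choroid-like cells.

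Vascular and meningeal cells had low tubulin RNA, and more Tubb6 than neurons. Endothelial-like cells summed to 5716, 4800 and 4834 CPM in wild-type, heterozygous and homozygous libraries. Tubb6 was at 129, 144 and 182 CPM in them and at 128 and 132 CPM in wild-type and homozygous mural-like cells. Meningeal fibroblast-like cells had 36.9, 96.1 and 36.1 CPM. Unnamed cluster 15 (131 cells), with Kdr and Egfl7, genes of endothelial cells, among its leading genes, had 108, 41.0 and 232 CPM, from 30 UMIs in all. Typical, atypical, excitatory neuron-like and inhibitory neuron-like cells stayed at or below 5.09 CPM of Tubb6 in every library with at least 30 cells of the class. Tubb3 in endothelial-like cells was at 241, 235 and 180 CPM, and this level is used as a reference for other classes. Whether it equals the background in those classes was not tested. Blood-like cells, 60 in all, had the lowest sum, 4739 CPM in the wild-type library.

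**Figure D4:**
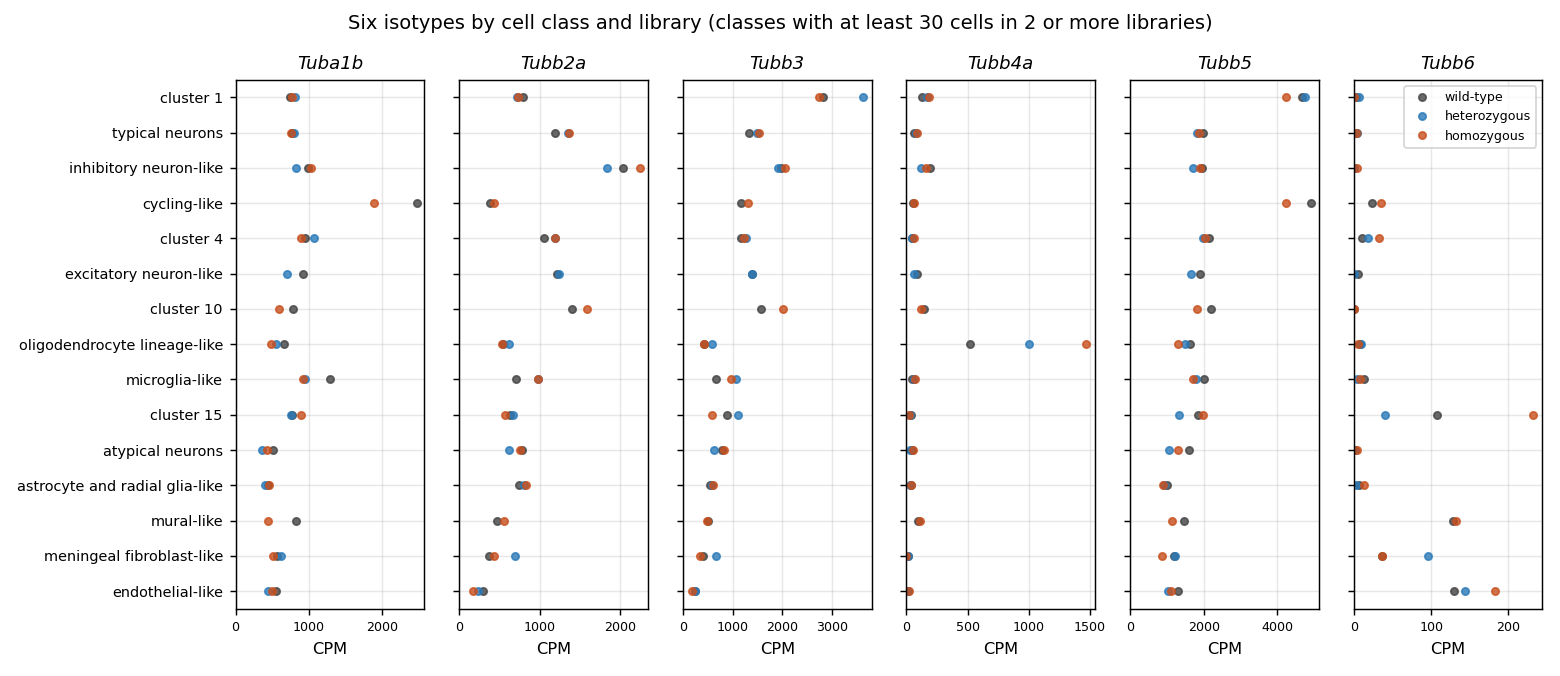
Levels in CPM (linear axes from 0) of Tuba1b, Tubb2a, Tubb3, Tubb4a, Tubb5 and Tubb6 in each class of cells with at least 30 cells in 2 or more libraries, 1 point per library. Tubb4a stands out in oligodendrocyte lineage-like cells, Tuba1b in cycling-like cells, Tubb3 in cluster 1, and Tubb6 in endothelial-like, mural-like and cluster 15 cells.

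Astrocyte and radial glia-like cells had less tubulin RNA than typical neurons, with a sum of 8895 ± 278 CPM (SD, n = 3) against 16856 ± 797 CPM. Tubb2b was their main beta tubulin, 33.7% of beta tubulin UMIs over all libraries, at 1216 ± 94.9 CPM (SD, n = 3). Tubb3 at 579 ± 39.4 CPM (SD, n = 3) lay above the endothelial-like level. One of their clusters (153 cells) had excitatory markers at 1982 CPM and Tubb3 at 848 CPM, the largest (523 cells) had 621 and 540 CPM, and the smallest (79 cells) 197 and 230 CPM, the last near the endothelial-like level of Tubb3.

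Microglia-like cells gave 2 tubulin profiles. The larger cluster (618 cells, 308 of them heterozygous) had Tuba1a at 7642 CPM and Tubb3 at 1135 CPM, with 66.2% of its thinned cells holding a Tubb3 UMI, and excitatory markers at 2039 CPM. The smaller cluster (151 cells), led by Spp1, P2ry12 and Cx3cr1, had Tuba1a at 2842 CPM, Tubb3 at 353 CPM, a thinned share of 24.5%, and excitatory markers at 528 CPM. Microglia markers led both clusters, and tubulin levels went with excitatory markers. Whether the larger cluster held neuronal RNA in the same droplets was not tested. Tuba1b was higher in the smaller cluster, at 1409 against 908 CPM.

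Tubb4b had its lowest mean in cluster 1 among classes with 3 libraries, at 110 ± 12.2 CPM (SD, n = 3). Heterozygous meningeal fibroblast-like cells (96.1 against 103 CPM) and homozygous atypical neurons (92.6 against 103 CPM) lay below cluster 1 of their library. Tubb4b was highest in the 13 ependymal and choroid-like cells, whose leading genes, among them Tmem212, Ccdc153 and Rsph1, belong to motile cilia. Over all libraries these cells had Tubb4b at 4191 CPM (3635 to 4807), from 204 UMIs, and all 13 had a UMI after thinning. With so few cells the value carries no library spread. Unnamed cluster 20 (70 cells), led by Reln and Ndnf, had the next highest level, 861 CPM in the wild-type library.

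Across 46 sums of a class in a library, on the scale of log2(CPM + 10), Tuba1a and Tubb2b were the members that went together most closely (Pearson r = 0.91), followed by Tubb2b with Tubb3 (0.87). Tubb6 ran against Tubb2b (-0.76). Outside the family, the genes most like Tuba1a were Rundc3a (0.88) and Marcksl1 (0.88), and those most like Tubb3 were Stmn1 (0.94), a regulator of microtubule disassembly, and Celf4 (0.93), an RNA-binding protein of neurons. Tubb2b was most like Map1b (0.92), a microtubule-associated protein of growing axons, and Basp1 (0.92), and Tubb2a was most like Ndrg4 (0.92) and Stmn3 (0.92). Tubb5 was most like Hn1 (0.87) and Stmn1 (0.85), Tubb4a like Nfasc (0.83), which encodes a cell adhesion molecule of axons and glia, and Tmem108 (0.81), and Tubb6 like Tpm4 (0.87), a tropomyosin, and BC028528 (0.87). Correlations of Tuba1b (2700094K13Rik, 0.73, and Nudc, 0.71), Tubb4b (Nudc, 0.70, and Gapdh, 0.69) and Tuba4a (1500026H17Rik, 0.82, and Hras, 0.77) were lower or rested on few counts. The sums share libraries and depth, so these are descriptions.

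Genes whose products fold tubulin were also measured in typical neurons. Prefoldin, which carries newly made tubulin to the chaperonin, had 6 of 6 genes at or above 20 CPM, of which 1 in homozygous and 2 in heterozygous cells were past the same fold upward, with median log2 ratios of 0.14 and 0.15. Pfdn4 was highest, with 123, 162 and 157 CPM in wild-type, heterozygous and homozygous cells and a homozygous log2 ratio of 0.36 (0.19 to 0.52). Pfdn5 was lowest, with 966, 804 and 821 CPM and a ratio of -0.23 (-0.30 to -0.17). The chaperonin CCT had 7 of 8 genes in the table and at this level, none past the fold in either comparison, from Cct7 at 0.22 (0.07 to 0.37) to Cct2 at -0.21 (-0.40 to -0.03). Of the 7 folding cofactors 4 were at this level and none passed, from Tbcc at 0.27 (-0.08 to 0.63) to Arl2 at -0.20 (-0.42 to 0.01).

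Other tubulin genes were scarce, with 2 of 10 at 20 CPM or more and none past the fold. They were Tubg2 with a homozygous log2 ratio of 0.30 (-0.01 to 0.61) and Tubg1 with -0.13 (-0.45 to 0.20), which encode the gamma tubulins that start microtubules. Among 20 tubulin modifying enzymes 6 were at this level, and 1 was past the fold upward in each mutant library. It was Ttll1, part of a polyglutamylase that adds glutamate to tubulin tails. Its levels were 24.0, 38.3 and 34.2 CPM in wild-type, heterozygous and homozygous cells, with a homozygous log2 ratio of 0.51 (0.15 to 0.89). Agtpbp1, which removes glutamate, was lowest at -0.24 (-0.49 to 0.02). Ttc5, the reader of the first codons shown above, was at 31.6, 39.1 and 43.95 CPM, with log2 ratios of 0.31 (0.0049 to 0.62) for heterozygous and 0.48 (0.16 to 0.80) for homozygous over wild-type, of which only the latter passed the fold. The 16.8% of all genes past this fold upward in each comparison is the background for these counts.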

How the data were processed

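Single cells sorted for tdTomato were captured with 10X Genomics 3′ v2 chemistry, 1 library per genotype. The authors aligned reads to mm10 and counted UMIs with Cell Ranger 2.0.1, and the deposited tables hold raw counts per gene and cell after their filter (17396 cells, 14933 genes) and for all barcodes. The deposited neuronal table (11943 cells, 7174 genes) holds natural log values normalised by the authors, of which only gene names and range were used, and the authors gave the mitochondrial fraction of each cell. How reads matching several genes were counted is not given in the sources used here.

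Counts were summed per library and cell group and scaled by the total UMIs of the group. Ratios carry exact conditional binomial, levels exact Poisson and shares Clopper-Pearson 95% intervals. With 1 library per genotype no test was made, and members count as past a fold at a log2 ratio of 0.32 (genotypes) or at 2-fold (cell groups) with a mean of at least 20 CPM. The remaining cells were clustered without tubulins (2000 variable genes, 30 principal components, 15 neighbours, leidenalg 0.10.2) and no doublet caller was run. Correlations used log2 values of sums. All 10 members are named, with the highest and lowest gene of each pathway list and the 2 genes most alike. The script was tested on simulated data. Alternatives used other denominators, edgeR 4.0.16 TMM and DESeq2 1.42.0 size factors, cells thinned to 1000 UMIs, the profile of empty droplets subtracted, and other cells, folds and minimum levels, and a window of 1600 to 2400 UMIs was chosen after seeing the data. The members and lists were chosen with earlier results of these data known. The authors' test over cells was not repeated, and scaled values were not used. Some sequences and marker genes are not reported here.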

Additional observations from a re-analysis of the deposited data

Results flagged for a closer look

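Results are given here where ratios of opposite sign each had an interval for counting error that left out 0. Tubb5 differed in direction between libraries when other cells were set against typical neurons, with log2 ratios of 0.27 in wild-type, -0.0520 in heterozygous and -0.16 in homozygous cells. This difference was not tested. Cycling-like cells and cluster 1, the classes with the highest Tubb5 levels, were mostly wild-type, and their part in it was not tested.

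For heterozygous over wild-type, 3 isotypes differed in direction between cell groups in this sense, and none of these differences was tested. Tubb2a had log2 ratios of 0.18 in typical neurons, -0.34 in atypical neurons and 0.59 in other cells. Tubb3 gave 0.17, -0.32 and 0.24 in the same order. Tubb4a gave 0.34, -0.50 and -0.32. Its ratio in atypical neurons rested on 7 heterozygous UMIs, and the interval (-1.93 to 0.71) included 0. Tuba1a (0.26, -0.08 and 0.36) and Tuba1b (0.05, -0.52 and -0.26) also had ratios of both signs, but the interval of the lone ratio on its side included 0. The heterozygous atypical neurons were 107 cells with a median mitochondrial share of 19.5%. The other cells were also a different mix in each library, with 45 wild-type and 275 heterozygous excitatory neuron-like cells, 540 and 77 cells of cluster 1, and 310 and 24 cycling-like cells, so their ratios are not like for like.

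For homozygous over heterozygous, 4 isotypes had ratios of both signs in this sense, again not tested. In typical neurons, atypical neurons and other cells, Tuba1a had log2 ratios of -0.10, 0.12 and -0.24. Tubb2a gave 0.0179, 0.30 and -0.16 in the same order, Tubb3 gave 0.0287, 0.40 and -0.26, and Tubb5 gave 0.0473, 0.31 and -0.0647. In typical neurons the intervals of Tubb2a (-0.02 to 0.06) and Tubb3 (-0.01 to 0.07) included 0. The same limits hold for these cells.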

How the results depend on the processing

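No paired analysis was possible because there was 1 library per genotype, and no library could be left out of a genotype. Tuba4a, Tubb4a and Tubb6 rested on few UMIs. The summed log2 ratio of homozygous over wild-type typical neurons (0.08) was 0.0197 over the UMIs of the neuronal table genes, 0.0351 with TMM and 0.0384 with DESeq2 factors, 0.0330 with the empty-droplet profile subtracted, and -0.34 as mean raw UMIs per cell, which also holds the lower depth of the homozygous cells. Heterozygous over wild-type (0.14) was 0.112, 0.108, 0.115, 0.0803 and 0.0504 under the same alternatives, and 0.19 with typical and atypical neurons together. Homozygous over heterozygous (-0.06) was -0.0923, -0.0733, -0.0766, -0.0473 and -0.39, and -0.10 with both neuron groups together. Members past the fold in homozygous cells (1, Tubb4a, higher) were 4 as raw UMIs per cell, all lower (Tuba1b, Tubb2b, Tubb4b and Tubb5), 0 at 1.5-fold, and 2 with no minimum CPM, Tubb4a higher and Tubb6 lower. In heterozygous cells (2) they were 1 with the neuronal table genes, TMM, DESeq2, raw UMIs per cell, the empty-droplet profile subtracted or cells of 1600 to 2400 UMIs, and 0 with thinned cells or at 1.5-fold. Other cells over typical neurons (-0.39) gave -0.49 with the neuronal table genes, -0.93 with TMM, -0.84 with DESeq2, -0.48 with the empty-droplet profile subtracted, -0.29 in cells of 1600 to 2400 UMIs and 0.20 as raw UMIs per cell. Atypical over typical neurons stayed between -0.81 and -0.57 under 9 alternatives. Of 471 values of single members under an alternative 438 kept the sign of their main value, and among those past the fold 1 reversed, Tubb4a in homozygous over wild-type cells, at -0.0226 as raw UMIs per cell. Apart from the alternatives' own construction, the cause was not tested.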
